A study of Mus musculus with 6 samples.

Results

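The parietal epithelial cell markers examined here are 9 mouse genes whose transcripts are used to recognise the cells that line Bowman's capsule of the kidney glomerulus. They are Cldn1, Cldn3, Pax8, Scin, Wfdc2, Ncam1, Cd9, Cd24a and Lad1. They were chosen by name and found by their NCBI Gene identifiers, and all 9 were present among the 27179 features of the deposited table. By general knowledge of the kidney, 4 of them (Cldn1, Scin, Ncam1 and Lad1) were set apart as little shared with tubules and 5 (Cldn3, Pax8, Wfdc2, Cd9 and Cd24a) as shared with tubules. This split was not drawn from these data, and the library profiles described below did not follow it. All 9 were detected in each of the 6 libraries, and the lowest value was 10 reads, for Cldn3 in WT-3.

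RNA of whole glomeruli, isolated by perfusing kidneys with magnetic beads, was sequenced from 6 male mice. The 3 KO mice (KO-1 to KO-3) carried floxed Parva on both alleles together with a Cre transgene that acts in podocytes and removes it. The 3 WT mice (WT-1 to WT-3) were Parva-fl/fl without Cre, so both groups carried the floxed alleles and the groups differ by Cre as well as by the deletion. All mice were aged 9 weeks, on a mixed C57BL/6 background and mildly proteinuric by the labels. Parva encodes alpha-parvin, an adaptor that links integrin-linked kinase to actin, and the comparison asks what its loss in podocytes does to glomerular transcripts. Parietal cells are not the cells in which this Cre is meant to act.

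Parietal epithelial cells form a flat sheet on the inner face of Bowman's capsule. The sheet is continuous with the proximal tubule at the urinary pole and with the podocytes at the vascular pole. Its cells are joined by tight junctions and keep the transcription factors of kidney epithelium. In glomerular injury they can be activated, migrate onto the tuft and contribute to scars or crescents. Glomeruli isolated with beads can be collected with or without their capsule, and the share that kept it is not given in the sources used here.

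Values below are normalised counts, given for each group in the order of the library numbers. Parva itself stood at 6585, 7520 and 7890 in the WT libraries and at 2288, 2338 and 1942 in the KO libraries. It was lower in every KO library, with a log2 difference of -1.74 (SE 0.12, limma adjusted p = 0.0106). The libraries held 11886828 to 20552984 whole reads. Between 0.239% and 32.4% of these lay in 10 genes that were high in a single library, none of them a parietal marker. Libraries differed in more than genotype. Of 24 proximal tubule markers, 23 were higher in KO, with a median log2 difference of 1.52, where 13.5% of all genes tested were called higher and 8.58% lower. Their summed level was 128795 to 286172 normalised counts in WT and 332748 to 508052 in KO, and none was at 0 in any library. WT-1 held more of them than the other WT libraries, by 1.15 on the log2 scale for the proximal list and by 1.33 for 22 markers of distal tubule and collecting duct. Podocyte markers moved the other way, with 9 of 20 lower and none higher in KO and a median of -0.60. Their summed level was 272065 to 338911 in WT and 190372 to 268824 in KO, and none was at 0. Glomerular endothelial and mesangial markers had medians of -0.64 and -0.75. In such bulk RNA, fewer cells of a type, less RNA per cell and a larger share of RNA from other cells, such as tubule cells, cannot be told apart.

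The start regions of the 4 markers that were higher in KO are shown first, to give the sequence from which these transcripts start. Each is the 250 bases before the RefSeq start site in build GRCm38.p6, 5′ to 3′ on the strand of the gene. Capitals mark matches on either strand to 5 motifs that were searched for: the TATA box TATAAA, the GC box GGGCGG, the HNF1 motif GTTAAT, the grainyhead core AACCNGTT and the TEAD core GGAATG. The windows lie at chr16:26371840-26372089 (minus strand) for Cldn1, at chr1:135818348-135818597 (plus strand) for Lad1, at chr2:24475600-24475849 (minus strand) for Pax8 and at chr2:164562465-164562714 (plus strand) for Wfdc2.
Cldn1: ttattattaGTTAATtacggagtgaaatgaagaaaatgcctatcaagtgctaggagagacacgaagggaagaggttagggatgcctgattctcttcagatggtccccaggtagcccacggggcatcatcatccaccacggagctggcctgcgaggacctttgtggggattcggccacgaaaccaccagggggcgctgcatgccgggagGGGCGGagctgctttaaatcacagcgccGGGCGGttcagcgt
Lad1: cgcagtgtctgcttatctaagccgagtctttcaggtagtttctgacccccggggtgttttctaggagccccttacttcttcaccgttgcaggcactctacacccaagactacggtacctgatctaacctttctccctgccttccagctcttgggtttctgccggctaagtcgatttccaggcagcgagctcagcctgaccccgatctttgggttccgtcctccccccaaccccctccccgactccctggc
Pax8: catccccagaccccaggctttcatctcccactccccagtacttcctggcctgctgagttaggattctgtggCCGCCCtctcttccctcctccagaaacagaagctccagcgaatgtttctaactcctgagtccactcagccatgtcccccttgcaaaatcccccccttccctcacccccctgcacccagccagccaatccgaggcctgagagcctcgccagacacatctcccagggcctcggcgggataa
Wfdc2: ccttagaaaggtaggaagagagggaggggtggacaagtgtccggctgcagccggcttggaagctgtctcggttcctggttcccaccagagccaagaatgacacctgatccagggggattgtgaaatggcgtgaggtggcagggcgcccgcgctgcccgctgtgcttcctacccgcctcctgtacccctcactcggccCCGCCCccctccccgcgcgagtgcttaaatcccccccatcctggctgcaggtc

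The 4 windows did not share a motif. Cldn1 held the HNF1 motif at position -241 and the GC box at positions -42 and -14, counted to the first base of the match. Pax8 held the GC box at -179 and Wfdc2 held it at -53, both on the opposite strand, where its letters read CCGCCC. Lad1 held none of the 5 motifs in this window. Of 32851 windows of the same length, 32.7% held the GC box and 6.43% the HNF1 motif. No 2 matches overlapped. RefSeq windows were matched for 7 of the 9 markers, and a match of letters describes the sequence only.

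The 9 markers did not move as 1 unit. At an adjusted p below 0.05 in limma, 4 were higher in KO (Cldn1, Lad1, Pax8 and Wfdc2), 2 were lower (Ncam1 and Cd24a) and 3 were not called (Scin, Cldn3 and Cd9). Over all 13946 genes tested, 13.5% were called higher and 8.58% lower, 22.1% in either direction. The 2 groups were fully separate for 6 markers with higher and 2 with lower KO values, against 23.2% and 21.9% of all genes (45.1% in either direction). The median log2 difference of the 9 was 1.10, beside -0.0064 over all genes. Both kinds of marker held calls in both directions. Of the 4 markers little shared with tubules, 2 were higher and 1 lower (median 1.17), and of the 5 shared ones, 2 were higher and 1 lower (median 1.08). The difference between the 2 kinds was not tested. With 3 mice a group the smallest p of a two-sided exact permutation test is 0.1, and every marker but Cd9 reached it.

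The calls were lost without WT-2, WT-3, KO-2 or KO-3, and most or all were kept without WT-1 or KO-1. These losses covered nearly all called genes of the table, and their cause was not tested. None of the 6 called markers stayed below the threshold without WT-2, WT-3, KO-2 or KO-3, where the lowest limma adjusted p of a marker was 0.107, 0.106, 0.109 and 0.0695. The same fits called 1, 0, 4 and 3 genes of the whole table, or 0.00716%, 0%, 0.0287% and 0.0216% of those tested. Without a variance trend limma called no marker, with 0.00717% of genes called. Without KO-1, 3 markers were called higher and 2 lower, against 9.18% and 5.61% of all genes, and Wfdc2 lost its call (limma adjusted p = 0.0609). Without WT-1, the WT library with most tubule RNA, 6 were called higher and 2 lower, against 18.6% and 12.1% of all genes. There Scin (log2 1.72, limma adjusted p = 0.00183) and Cldn3 (log2 1.77, limma adjusted p = 0.0348) were called too. On the recovered reads edgeR called 3 higher and 2 lower (12.1% and 8.25% of all genes), and DESeq2 called 6 higher and 2 lower (16.8% and 10.6%). The direction of the 8 markers other than Cd9 was the same in each of these fits.

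**Figure D1:**
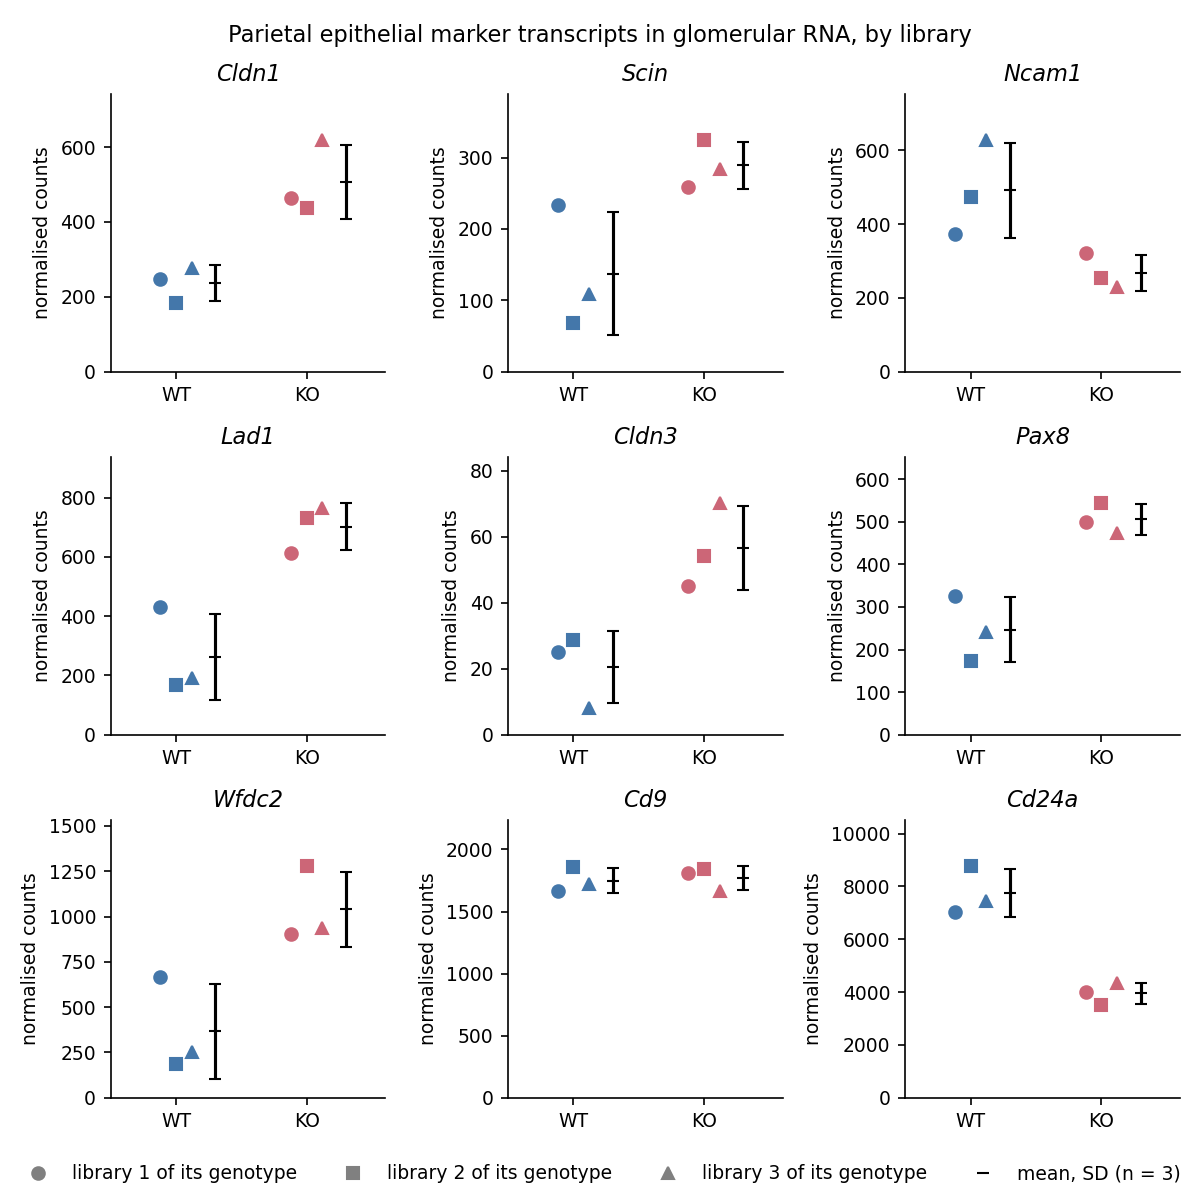
Normalised counts (vertical axes, from 0) of the 9 parietal markers in each library, with WT in blue and KO in red, symbols for the library number and bars for the mean and SD of 3 mice. Cldn1, Lad1, Pax8 and Wfdc2 lie higher in all KO libraries, as do Scin and Cldn3, which were not called. Ncam1 and Cd24a lie lower in all KO libraries. For Lad1, Scin, Pax8 and Wfdc2 the circle of WT-1 lies above the other WT libraries.

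Cldn1 (Gene ID 12737, mm10 chr16:26356645-26371839, minus strand), the tight junction claudin most used to stain the parietal sheet, stood at 249, 184 and 277 normalised counts in the WT libraries and at 464, 436 and 619 in the KO libraries. All KO libraries were above all WT libraries, and KO-3 was the highest. The mean was 236 ± 47.4 in WT and 507 ± 98.5 in KO (SD, n = 3), and the log2 difference was 1.10 (SE 0.19, 95% interval 0.64 to 1.56, limma adjusted p = 0.0286). The log2 level in WT-1, the WT library richest in tubule transcripts, was 7.96, between 7.53 in WT-2 and 8.12 in WT-3. It exceeded the mean of those libraries by 0.14. WT-2 and WT-3 differed by more than this, although their proximal tubule means were close (11.37 and 11.34). Differences within WT were not tested. No annotated gene overlaps Cldn1, and its 186 to 546 reads per library make it a gene of moderate depth.

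Lad1 (Gene ID 16763, chr1:135818598-135833341, plus strand) encodes ladinin-1, a protein first described at the basement membrane anchors of epithelium. It stood at 430, 169 and 190 normalised counts in the WT libraries and at 611, 730 and 764 in the KO libraries. The groups did not overlap, but WT-1 lay well above WT-2 and WT-3, by 1.26 on the log2 scale. The mean rose from 263 ± 145 to 702 ± 80.2 (SD, n = 3), a log2 difference of 1.54 (SE 0.33, 95% interval 0.76 to 2.31, limma adjusted p = 0.0294).

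Scin (Gene ID 20259, chr12:40059769-40134228, minus strand) encodes scinderin, a calcium-dependent actin-severing protein. Its values were 234, 68.3 and 109 normalised counts in WT and 259, 325 and 283 in KO. The groups were separate by a narrow margin, since WT-1 reached nearly the level of KO-1 and exceeded the other WT libraries by 1.42 on the log2 scale. The means were 137 ± 86.0 and 289 ± 33.4 (SD, n = 3), and the log2 difference of 1.25 (SE 0.40) missed the threshold in limma (adjusted p = 0.0617). DESeq2 called it, with an adjusted p of 0.0311.

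Ncam1 (Gene ID 17967, chr9:49502129-49799393, minus strand), a neural cell adhesion molecule also found on developing nephron epithelium, went the other way. It stood at 374, 473 and 629 normalised counts in WT and at 322, 253 and 229 in KO. Every KO library was below every WT library, and WT-1 was the lowest of its group. The mean fell from 492 ± 129 to 268 ± 48.5 (SD, n = 3), with a log2 difference of -0.85 (SE 0.21, 95% interval -1.35 to -0.36, limma adjusted p = 0.0340). The order of the 6 libraries by Ncam1 was the order by the podocyte marker mean, from WT-3 at the top to KO-3 at the bottom. Gm11149 lies antisense within its span, and the strand setting of the counts is not given in the sources used here.

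Among the markers shared with tubules, Pax8 (Gene ID 18510, chr2:24420551-24475599, minus strand), a paired box transcription factor of nephron epithelium, stood at 326, 173 and 240 normalised counts in WT and at 499, 545 and 474 in KO. All KO values were higher, and WT-1 was the highest WT library. The mean rose from 246 ± 76.5 to 506 ± 35.8 (SD, n = 3), a log2 difference of 1.08 (SE 0.22, 95% interval 0.57 to 1.59, limma adjusted p = 0.0286). The transcript Gm13415 lies on the opposite strand and could share reads.

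Wfdc2 (Gene ID 67701, chr2:164562715-164568510, plus strand), which encodes a secreted protein of the whey acidic protein family made by many epithelia, had the largest difference of the 9. It stood at 665, 184 and 250 normalised counts in WT and at 902, 1280 and 938 in KO. The groups did not overlap, and WT-1 exceeded the other WT libraries by 1.63 on the log2 scale, more than for any other marker here. The mean rose from 366 ± 261 to 1040 ± 209 (SD, n = 3), a log2 difference of 1.71 (SE 0.44, 95% interval 0.69 to 2.73, limma adjusted p = 0.0359). In edgeR the adjusted p was 0.0534.

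Cldn3 (Gene ID 12739, chr5:134986214-134987476, plus strand), a sealing claudin of several nephron segments, was the scarcest marker. Its values were 25.0, 28.7 and 8.23 normalised counts in WT and 45.2, 54.1 and 70.3 in KO. The groups did not overlap, and WT-3 was the lowest. The means were 20.6 ± 10.9 and 56.5 ± 12.7 (SD, n = 3), and the log2 difference of 1.56 (SE 0.47, 95% interval 0.46 to 2.65) was not called by limma (adjusted p = 0.0521). It passed at a pseudocount of 5 (adjusted p = 0.0449) and in DESeq2 (adjusted p = 0.0136). Only 10 to 62 reads per library stood behind these values, and Wbscr25 lies antisense to it.

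Cd24a (Gene ID 12484, chr10:43579169-43584265, plus strand), a glycosylphosphatidylinositol-anchored sialoglycoprotein used with CD133 to mark progenitor-like parietal cells in human kidney, was the most abundant marker and fell. It stood at 7021, 8780 and 7458 normalised counts in WT and at 4004, 3515 and 4327 in KO. The lowest WT library was far above the highest KO library. The mean was 7753 ± 916 in WT and 3949 ± 409 in KO (SD, n = 3), with a log2 difference of -0.97 (SE 0.13, 95% interval -1.28 to -0.66, limma adjusted p = 0.0286). WT-1 was the lowest WT library, with a log2 level that differed by -0.20 from the mean of the other WT libraries. The order of the libraries by Cd24a was the order by the glomerular endothelial marker mean. Of those 16 endothelial markers 12 were lower in KO, and of 12 mesangial markers 9 were lower, beside 8.58% of all genes.

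Cd9 (Gene ID 12527, chr6:125460266-125494760, minus strand) encodes a tetraspanin that parietal cells of mouse models need to migrate into glomerular lesions. It stood at 1662, 1861 and 1721 normalised counts in WT and at 1814, 1840 and 1662 in KO. The groups overlapped throughout. The mean was 1748 ± 102 in WT and 1772 ± 95.9 in KO (SD, n = 3), and the log2 difference of 0.02 (SE 0.09, limma adjusted p = 0.883) had a 95% interval of -0.19 to 0.23. The two-sided exact permutation p was 0.9. Gm28809 and Gm26728 lie antisense within its span.

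Compared per kilobase of exon, on the scale of normalised counts, the order of levels changed between the genotypes. In WT, Cd24a led with 3005 ± 355, followed by Cd9 with 855 ± 49.9 and Wfdc2 with 321 ± 229 (SD, n = 3), whose wide spread reached Lad1. Lad1, Ncam1, Cldn1, Scin and Pax8 followed between 77.4 and 40.7, each within the spread of its neighbour, and Cldn3 was last with 16.4 ± 8.66. In KO, Cd24a still led with 1531 ± 159, and Wfdc2 with 912 ± 183 and Cd9 with 867 ± 46.9 did not differ beyond their spread. Lad1 stood apart below them with 206 ± 23.6. Cldn1, Scin and Pax8 followed between 105 and 83.5 without clear separation. Ncam1, the fifth in WT, was last in KO with 31.0 ± 5.59, within the spread of Cldn3 at 44.9 ± 10.1.

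Read against the proximal tubule markers, the 4 markers called higher in KO lost their separation between genotypes. Per library, the log2 level of a marker minus the mean log2 level of the proximal list differed between KO and WT by -0.39 for Cldn1, 0.05 for Lad1, -0.41 for Pax8 and 0.22 for Wfdc2, with overlapping groups for each. Scin and Cldn3 differed by -0.24 and 0.07, also with overlap. Relative to the distal list, the differences of these 6 lay between -0.13 and 0.50. Cd24a and Ncam1 differed by -2.46 and -2.34 relative to the proximal list, and by -2.18 and -2.07 relative to the distal list, with no overlap of the groups. Cd9, flat by itself, also differed by -1.47 relative to the proximal list with no overlap, and by -1.19 relative to the distal list with overlap. A flat gene is thus separated by this ratio, since the tubule lists themselves differed between the genotypes. The mean of the proximal list rose by 1.49, so a gene that rises about as much tends to lose its separation, whatever cells it comes from. The ratios are descriptions, and the source of the transcripts was not tested.

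**Figure D2:**
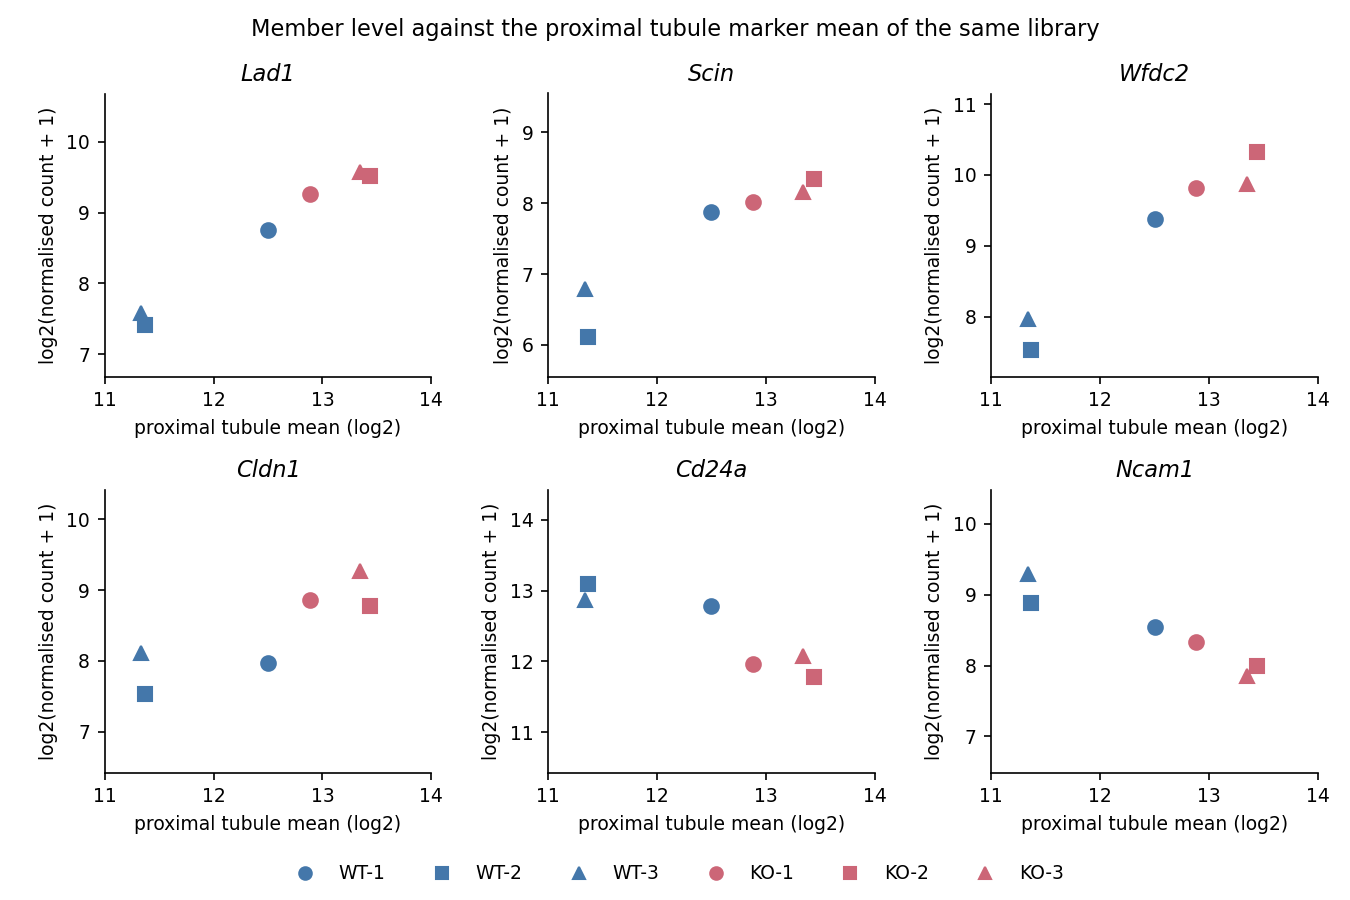
Log2 level of 6 markers (vertical axes, each spanning the same range) against the mean log2 level of 24 proximal tubule markers in the same library (horizontal axes), with WT in blue and KO in red. Lad1, Scin and Wfdc2 lie higher in KO. Within WT they are highest in WT-1, 1.26, 1.42 and 1.63 above the mean of WT-2 and WT-3. WT-3 exceeds WT-2 for each of them, though its tubule mean is slightly lower (11.34 against 11.37). Cldn1 in WT-1 lies between WT-2 and WT-3, and Cd24a and Ncam1 descend.

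When the mean of the proximal tubule markers entered limma as a covariate, no gene of the table was called, and 398 had an unadjusted p below 0.05. The log2 difference left for Lad1 was 0.05 (SE 0.24), that for Pax8 0.34 (SE 0.31) and that for Cldn3 0.63 (SE 0.90). Scin and Wfdc2 turned to -0.39 (SE 0.43) and -0.19 (SE 0.36). Among the 4 markers called higher Cldn1 moved least, from 1.10 to 0.92 (SE 0.39), and Cd9 went from 0.02 to 0.15. Ncam1 went from -0.85 to -0.07 (SE 0.28), and Cd24a from -0.97 to -0.72 (SE 0.22). Beside the distal marker mean the differences were reduced less for most markers. They were 1.14 for Cldn1, 1.56 for Cldn3, 0.83 for Lad1, 0.58 for Wfdc2, 0.56 for Pax8 and 0.29 for Scin, and -0.68 for Ncam1, -0.72 for Cd24a and 0.04 for Cd9, with no sign changed. With the podocyte marker mean as the covariate, Ncam1 was left with -0.05 (SE 0.24), Cldn1 with 0.86 (SE 0.39) and Cd24a with -0.88 (SE 0.25). Pax8 was left with 0.71, Wfdc2 with 0.54, Lad1 with 0.49, Cldn3 with 0.48 and Scin with 0.25, and Cd9 stood at 0.14. The adjusted p was 0.9998 for all 9 markers beside the proximal mean and at least 0.9751 beside the podocyte mean, and the distal mean left none called either. The proximal tubule mean itself did not overlap between the genotypes, at most 12.50 in WT and at least 12.88 in KO on the log2 scale, so the part of tubule RNA in these differences cannot be told apart from that of the genotype.

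**Figure D3:**
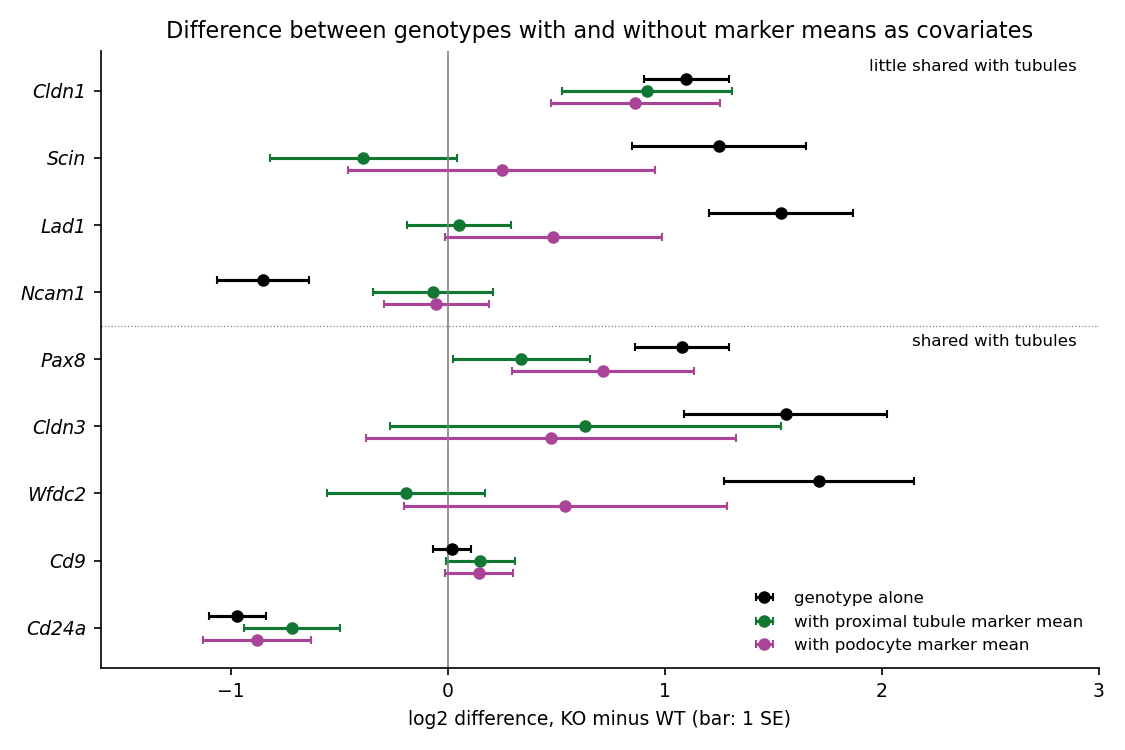
Log2 difference between KO and WT (horizontal axis, bars of 1 SE) for each marker from genotype alone (black), with the mean of the proximal tubule markers added (green) and with the podocyte marker mean (purple). Cldn1 and Cd24a stay near their values from genotype alone, at 0.92 and -0.72 beside the proximal mean, where Lad1 and Ncam1 come close to 0 and Scin and Wfdc2 cross it, while Lad1 and Wfdc2 lie at 0.49 and 0.54 beside the podocyte mean.

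The profile of each marker over the 6 libraries was set beside those of the marker lists, by the Euclidean distance of log2 values centred on their own mean. Lad1 lay nearest to the proximal tubule list, at 0.28. Wfdc2 and Scin followed, both at 0.66, Pax8 at 0.83, Cldn1 at 1.163 and Cldn3 at 1.29, while Cd9 (2.12), Cd24a (3.25) and Ncam1 (3.29) were farther from that list. This order did not follow the split made by general knowledge. Lad1 and Scin, set apart as little shared with tubules, were among the nearest, and Cd9 and Cd24a, set as shared, among the farthest. The distance of Cldn1 to the immune list was 1.44, and the immune mean log2 level was highest in KO-3, at 6.89 against 4.80 to 5.70 elsewhere. Cd24a and Ncam1 lay nearest to the mesangial list, at 0.40 and 0.48, and Cd9 nearest to the podocyte list, at 0.77. Cd9 itself was flat, so its distance to a list depends mostly on how much that list varied over the libraries. Between the markers themselves, Wfdc2 with Lad1 (0.5536) and Scin with Lad1 (0.5545) were the closest pairs, and Wfdc2 and Cd24a the farthest (3.69).

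Among 11703 genes with a mean of at least 50, the genes most like each marker by the same distance were Ttc38 (0.24) and Shisa4 (0.36) for Cldn1, and Aoah (0.08) and Gcat (0.10) for Lad1. For Scin they were Klhdc7a (0.19) and Tmem171 (0.24), and for Pax8 Gga2 (0.14) and Podn (0.20). Wfdc2 was most like 2610528J11Rik (0.22) and Cdh16 (0.23), the latter a kidney cadherin of the distal list. Ncam1 was most like Npr1 (0.19) and Syne1 (0.22), and Cd24a was most like Axin2 (0.15) and Dysf (0.17). For Cldn3 the nearest gene, Slc16a11, was distant (0.64), and for Cd9 Hltf (0.04) and Gnl3 (0.06) were as flat as the marker. These distances rest on 6 libraries and describe them.

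Of 10 other genes known from parietal cells 9 passed the filter, and 2 were higher in KO and none lower, with a median log2 difference of 0.97. A count of 2 in 9 is near the 22.1% called over all genes and is no result about parietal genes. Both were keratins of simple epithelium that tubules can also express. Krt18 went from 46.7 ± 25.4 to 148 ± 24.4 normalised counts and Krt8 from 369 ± 211 to 1029 ± 260 (SD, n = 3), with limma adjusted p of 0.0286 and 0.0310. Pax2, which acts with Pax8 in nephron epithelium, had a log2 difference of 1.10 and an adjusted p of 0.0688 in limma. Prom1 had a log2 difference of 1.21 with overlapping groups, Aldh1a2 of 0.09, Anxa3 of 0.01 and Akap12 of -0.27, all without a call. Vcam1 and Cd44, adhesion molecules of activated parietal cells, were high in KO-3 alone, at 933 and 256 normalised counts against at most 392 and 61.7 elsewhere. KO-3 is also the library with the highest immune marker mean, and the part of immune cells in these values was not tested.

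Of 9 genes of parietal activation signalling that passed the filter 2 were higher and 2 lower, with a median of 0.28, beside 13.5% higher and 8.58% lower over all genes. Mif, a cytokine that binds Cd74, went from 711 ± 205 to 1835 ± 297 normalised counts, and Egfr, the epidermal growth factor receptor, from 122 ± 71.3 to 313 ± 32.9 (SD, n = 3). Their limma adjusted p were 0.0286 and 0.0311. Pdgfrb, a mesangial receptor, fell from 6410 ± 1323 to 3114 ± 210, and Hbegf, a ligand of Egfr, from 674 ± 69.4 to 461 ± 31.7, both with a limma adjusted p of 0.0286. Egfr and Mif were also higher in WT-1 than in the other WT libraries, as the proximal tubule markers were.

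Cldn1 and Cldn3 belong to the claudins, the transmembrane proteins that set which solutes pass a tight junction. Of 21 claudins listed, 14 passed the filter, and 7 were higher and 2 lower in KO, with a median of 1.502, beside 13.5% higher and 8.58% lower over all genes. Cldn2, the pore-forming claudin of the proximal tubule, rose from 1239 ± 648 to 3584 ± 720 normalised counts (SD, n = 3; log2 1.63, limma adjusted p = 0.0286). Cldn7, found in distal segments, rose from 77.7 ± 44.0 to 228 ± 62.1 (log2 1.65, limma adjusted p = 0.0318). Cldn4, Cldn6, Cldn10 and Cldn12 were the other claudins called higher besides Cldn1, and Cldn10 was called although WT-1 (1221) exceeded KO-1 (1208). Cldn5, the endothelial claudin that podocytes also express, fell from 5080 ± 613 to 3148 ± 330 (log2 -0.69, limma adjusted p = 0.0286), and Cldn15 fell by 0.57 on the log2 scale. Cldn8, Cldn16, Cldn18 and Cldn19 were not called, with log2 differences of 1.40 to 1.92.

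The WT libraries alone give a further comparison of claudins. WT-1 held 1988 normalised counts of Cldn2 against 869 and 861 in the other WT libraries, and 127 of Cldn7 against 42.6 and 63.4. It held 137 of Cldn4 against 29.7 and 56.8. For Cldn1, WT-1 lay between the other WT libraries, with 249 between 184 and 277. Cldn3 did so too, with 25.0 between 8.23 and 28.7. This place was not particular to the markers, since Cldn6 had 7.60 in WT-1, between 2.97 and 9.88. Cldn3 had only 10 to 29 reads per WT library, and its WT-1 level exceeded the mean of the other WT libraries by 0.65 on the log2 scale. Among the remaining claudins above the filter, Cldn8, Cldn10, Cldn12, Cldn16, Cldn18 and Cldn19 were highest in WT-1 within WT. Cldn5 and Cldn15 were lowest there. Differences within 1 group of 3 mice were not tested.

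**Figure D4:**
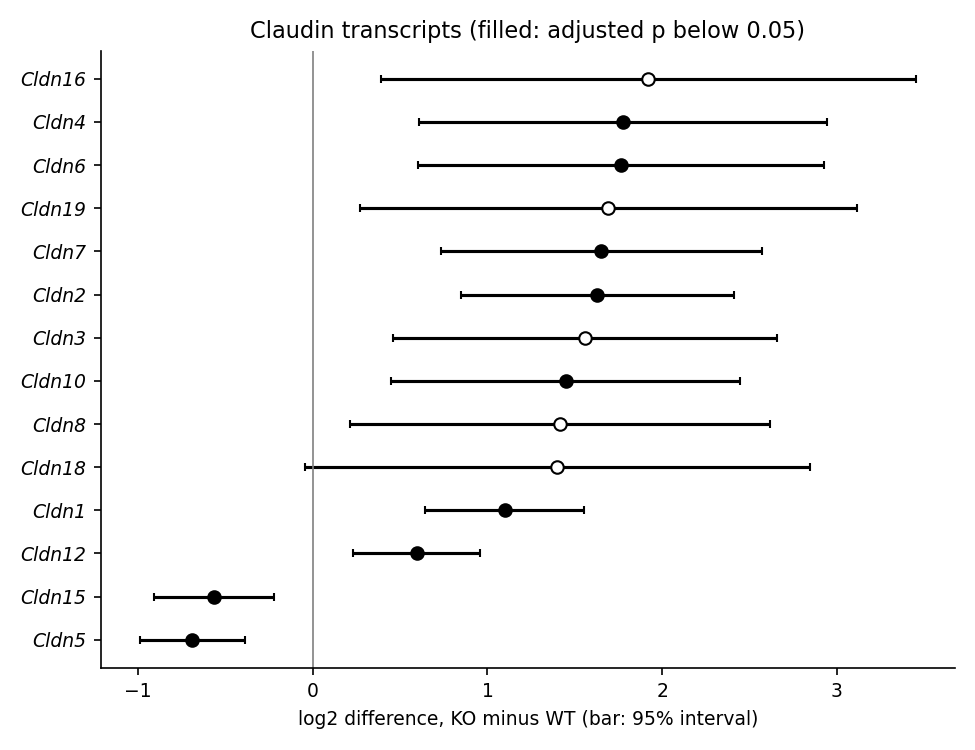
Log2 difference between KO and WT (horizontal axis, bars of the 95% interval) for the 14 claudins that passed the filter, ordered by size, with filled points where the limma adjusted p was below 0.05. Cldn1 at 1.10 and Cldn12 at 0.60 are the smallest of the 7 filled points above 0, Cldn3 at 1.56 is unfilled, and Cldn5 and Cldn15 are the 2 claudins below 0.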

How the data were processed

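The authors deposited normalised counts (a signal: reads per gene over a scaling factor of the library, as the file headers and values show). Submitters' processing notes name HISAT2 2.1 for build mm10, cutadapt 1.16.5, bcl2fastq 2.19, DESeq2 2.11.40.6 and featureCounts 1.6.4. How strands, annotation and multiply mapped reads were handled is not given there.

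Whole reads were recovered from the step of each library (100% of values whole at a tolerance of 0.01), 11886828 to 20552984 per library. RefSeq named 25275 identifiers, and 1904 stayed unnamed but tested. Genotypes were compared by limma 3.58.1 (R 4.3.3, variance trend) on log2(normalised count + 1), for 13946 genes with a mean of at least 10, with genotype as its term, two-sided, called at a Benjamini-Hochberg adjusted p below 0.05. This scale understates the change of low genes. Alternatives were DESeq2 1.42.0 and edgeR 4.0.16 run on those whole reads, other pseudocounts, filters, TMM scaling, covariates, a replicate block and leaving out each library. The limma, edgeR and DESeq2 calls were tested on simulated counts that held no shared shift of tubule or podocyte RNA. The covariate, ratio and distance steps were not tested in that way. Levels per kilobase used GENCODE M21 exons of mm10. Precision is limited by 3 mice a group. The exact permutation test has 20 assignments.

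The markers, lists and covariates were chosen with earlier results of these data known. Lists share genes, among them Gata3 (distal and mesangial), Pdgfrb (activation and mesangial), Akap12 (other parietal and mesangial), Cd44 (other parietal and activation) and Cd74 (activation and immune). Named genes were all 9 markers, all claudins above the filter, up to 3 called genes per list and direction with the smallest adjusted p, and for likeness the 2 nearest genes, of which 1 is not reported here. Pax2, Prom1, Aldh1a2, Anxa3, Akap12, Vcam1, Cd44 and the genes of single libraries in comparisons were named after their values were seen.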

Additional observations from a re-analysis of the deposited data

How the results depend on the processing

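The calls depended strongly on the fit, the directions less so. Leaving out each library in turn gave 0 to 4295 called genes, 0 to 6 markers called higher and 0 to 2 called lower, beside 3085, 4 and 2 with all libraries. With the proximal tubule, distal tubule or podocyte marker mean as a covariate, 0 genes and 0 markers were called in limma, and 398, 1766 and 496 genes had an unadjusted p below 0.05. Without a variance trend, an alternative chosen after seeing the data, limma called 1 gene and 0 markers, and 5305 genes had an unadjusted p below 0.05. The cause of these losses was not tested. edgeR called 2841 genes with 3 markers higher and 2 lower, and DESeq2 called 3810 genes with 6 and 2. Pseudocounts, filters and TMM scaling gave 2668 to 3120 genes and changed the call of Cldn3 alone among the markers, at a pseudocount of 5.

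The log2 difference changed sign for Scin (-0.39) and Wfdc2 (-0.19) beside the proximal tubule mean. That of Cd9 ran from -0.0155 to 0.0659 when each library was left out. Over the 161 values of single markers under the alternatives, 97 kept direction and side of the threshold, 55 lost the call, 5 gained it and 4 changed sign.

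Libraries that share a number in the labels did not deviate together (correlations of -0.226, -0.191 and -0.0129), so the numbers were not taken to pair them. With a replicate block limma called 0 genes, of which 4284 had an unadjusted p below 0.05, and 0 markers. All 8 markers other than Cd9 kept their direction under the block. Cldn3 rests on as few as 10 reads in a library, which limits its precision, and the minimum mean of 50 left it out.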

Other observations

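Cd9 belongs to the tetraspanins, membrane proteins that gather integrins and growth factor receptors. All 23 tetraspanins listed passed the filter, and 2 were higher and 6 lower in KO by limma, with a median log2 difference of -0.21, beside 13.5% higher and 8.58% lower over all genes. Cd63, a tetraspanin of lysosomes, rose from 4817 ± 1307 to 10319 ± 2735 normalised counts (SD, n = 3; limma adjusted p = 0.0304). Tspan33 rose from 196 ± 102 to 496 ± 150 (limma adjusted p = 0.0403). Tspan15, a regulator of the protease ADAM10, fell from 4214 ± 680 to 2143 ± 576, and Tspan13 fell from 1737 ± 213 to 1036 ± 143, both with a limma adjusted p of 0.0286. Tspan14 fell from 1749 ± 143 to 1326 ± 29.4 (limma adjusted p = 0.0304). Cd81 and Cd151, close partners of Cd9, had log2 differences of -0.22 and -0.27 and were not called. Cd9 was among the 15 tetraspanins without a call. The fits without WT-2, WT-3, KO-2 or KO-3 called 1, 0, 4 and 3 genes of the whole table.

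KO-3 stood apart for Cd74, an invariant chain and receptor of Mif, with 3089 normalised counts against 348 to 608 in the other libraries. Krt19, a keratin below the filter, also had its highest value there, at 24.9 against at most 6.20. The summed immune marker level was 5202 in KO-3 and 1225 to 1978 elsewhere. Cd74 belongs to that list and supplied 3089 of the 5202, so the sum is not separate from it. The part of immune cells in these values was not tested.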
